A study of Mus musculus with 3 samples.

Results

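The comparison described here sets nasal double-positive cells (DP), which carry the neutrophil surface protein Ly6G together with the sialic acid-binding lectin SiglecF, against neutrophils of peripheral blood. It uses 2 of the 3 RNA-seq libraries of the series and 10719 of the 23234 listed genes, those with a mean of 1 FPKM (fragments scaled to transcript length and to the size of the library) or more over the 3 libraries. All cells came from wild-type C57BL/6J mice aged 6 to 15 weeks that had received lipopolysaccharide (LPS), the endotoxin of Gram-negative bacteria, into both nostrils (10 µg in 10 µL of buffer). DP were sorted from the nose as CD45+Ly6G+SiglecF+ cells 2 days after LPS. Blood neutrophils were sorted as CD45+Ly6G+SiglecF- cells 1 day after LPS, and the same gate on the nose at 1 day gave the nasal neutrophils, whose values are printed beside the others. Untreated mice are not among the samples analysed here. Each group is 1 library, and whether it pooled several mice is not given in the sources used here, so no value has a replicate error and no test was made. Tissue, day and gate differ together between DP and blood and cannot be told apart.

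Neutrophils are made in the bone marrow, released into blood with granules already filled, and recruited into inflamed tissue by chemokines that bind CXCR2. After leaving the vessels they release granule contents and switch on a programme of cytokine and chemokine genes under NF-kappaB. SiglecF is best known from eosinophils and alveolar macrophages, and has also been found on neutrophils in tumours and inflamed airways.

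DP carried more transcripts of chemokines, immediate early genes, leukotriene C4 synthase, respiratory complex I and mitochondrial ribosomal proteins than blood neutrophils, and fewer of many granule, S100 and stefin genes that are abundant in the blood library. The DP library also held transcripts of olfactory neurons and nasal glands, whose cells of origin were not tested. At a 4-fold difference, a log2 ratio of 2 between values of FPKM + 1, 2577 genes were higher in DP (24.0%) and 383 were lower (3.57%). The median log2 ratio of all 10719 genes was 0.95, so the ratios were not centred on 0. With ratios centred on that median the higher genes made up 53.5% of those past 4-fold, and with upper-quartile scaling 66.9%, against 87.1% as deposited. Among the genes higher in DP, 559 were listed at 0 in blood, and 54 of the lower genes were listed at 0 in DP. Over the 7577 genes at 1 FPKM or more in blood, 1007 were higher (13.3%) and 383 lower (5.05%), with a median of 0.47. A gene near 0 in blood could pass the filter only by being higher elsewhere, so counts below describe the libraries and are read beside these shares. At the filter, Tep1 lay just inside with a mean of 1.0001 FPKM and Olfr1321 just outside with 0.99996.

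Abundant genes differed in both directions. Of the 776 genes at 100 FPKM or more in blood, 21 were higher in DP and 171 were lower, with a median log2 ratio of -0.60. Of the 1037 at 100 FPKM or more in DP, 320 were higher and 44 lower, with a median of 1.14. Choosing genes by the level in either library tilts the direction, so these counts are a description. Over the 3017 genes at 10 FPKM or more in both, 274 were higher (9.08%) and 180 lower (5.97%). Blood RNA was concentrated in few genes: the 100 most abundant held 56.8% of the summed FPKM in blood and 37.9% in DP, and genes at 1 FPKM or more numbered 7706 in blood and 11294 in DP. Steps between low values placed both libraries near the same depth, about 54800000 fragments for DP and 54300000 for blood.

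**Figure D1:**
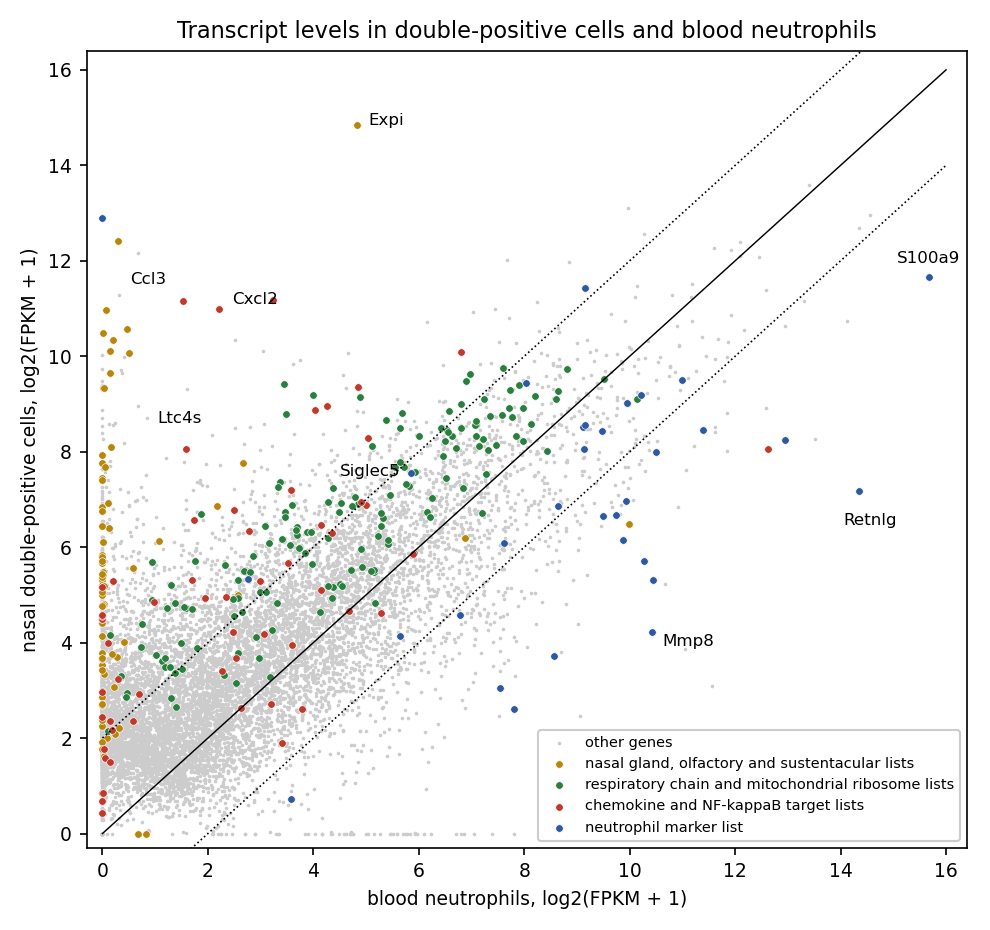
Level of each of the 10719 genes in blood neutrophils (x axis) and DP (y axis), as log2(FPKM + 1), with the line of equality and dotted lines at 4-fold; colours mark gene lists. Neutrophil markers such as Retnlg and Mmp8 lie below the lower dotted line, while Ccl3, Cxcl2 and Ltc4s lie above the upper one; S100a8 is the neutrophil marker at 0 on the x axis.

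The sort could be read in the RNA for SiglecF. Siglec5, the symbol under which these tables list the mouse SiglecF gene, reached 167.8 FPKM in DP, 9.92 in the nasal neutrophil library and 18.7 in blood, 8.96 times higher in DP than in blood. Ptprc, which encodes CD45, was at 445.1 FPKM in DP and 718.8 in blood. Itgam, the CD11b chain of the complement receptor integrin, was at 26.9 FPKM in DP against 136.4 in blood and 137.3 in nasal neutrophils. Ly6g had no row of that name. Siglec5 marks the gate, and its level is a check of the label rather than a result.

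SiglecF is shared with eosinophils, and the defining eosinophil genes were at or near 0 in both libraries. The granule proteins Epx and Ear6 were listed at 0 in DP and in blood, and Prg2 was at 0.19 and 0.16 FPKM. Ccr3, the eotaxin receptor, was at 1.92 FPKM in DP and 4.15 in blood. The 6 defining genes summed to 2.78 FPKM in DP and 5.52 in blood. A broader list of 14 eosinophil markers summed to 218.5 and 32.1 FPKM, and 3 of the 6 that passed the filter were higher in DP by 4-fold or more, with 0 lower. These 3 were Siglec5, Cebpe (39.1 and 5.79 FPKM), which neutrophil precursors also express, and the lipoxygenase gene Alox15 (7.98 and 0). Among macrophage genes the complement components C1qa, C1qb and C1qc reached 10.5, 32.3 and 29.0 FPKM in DP, were at 30.8, 80.9 and 53.3 in nasal neutrophils, and were listed at 0 in blood. The 20 macrophage markers summed to 753.7 FPKM in DP and 551.4 in blood, with Marco and Vsig4 at 0 in both. Among the 12 past the filter, 5 exceeded blood by 4-fold or more, 4 of them at 0 there, and 0 lay that far below. Counting any difference, 10 lay above blood and 2 below, Csf1r (42.4 in DP against 85.9 FPKM) and Emr1 (47.2 against 78.8). Apoe (277.6 against 150.1 FPKM) and Cd68 (296.3 against 235.3) belong to the 10. The median log2 ratio was 1.5, or 0.61 over the 8 members above 0 in both libraries. The 11 B cell markers summed to 58.3 FPKM in DP and 70.2 in blood. Ebf1, also counted among the olfactory neuron markers, gave 46.5 FPKM of the DP sum and 0.50 in blood. Of 9 B cell markers that passed the filter, 1 was at least 4-fold higher and 4 were lower, with a median log2 ratio of -1.48. The 21 T and NK cell markers summed to 78.1 and 37.4 FPKM, of which the chemokine gene Ccl5 gave 49.7 and 10.5. Of 8 that passed the filter, 1 was higher and 0 lower. Red cell and platelet genes were lower in DP, with a sum of 26.8 FPKM against 5536 in blood. Most of the blood sum was haemoglobin, whose near-identical copies share reads.

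Transcripts of the nasal lining were plentiful in the DP library. Expi, a secreted protease inhibitor of the whey acidic protein family, was the most abundant DP gene at 29517 FPKM, or 4.63% of the summed FPKM, against 472.2 in nasal neutrophils and 27.5 in blood. The 41 nasal gland and secreted protein genes together summed to 42662 FPKM in DP (6.69% of the library) and to 1097 in blood, of which the lysozyme gene Lyz1 gave 1010. Olfactory neuron markers summed to 3821 FPKM in DP and 6.03 in blood, with Omp, the olfactory marker protein, at 244.0, 233.6 and 0 in DP, nasal neutrophils and blood. Sustentacular cell enzymes summed to 2603 and 127.0 FPKM, and epithelial keratin and junction genes to 628.7 and 12.9. Olfactory receptor genes at 0.1 FPKM or more numbered 688 of 1118 in DP, 578 in the nasal neutrophil library and 8 in blood. Of 108 genes of the nasal tissue lists that passed the filter, 85 were higher in DP by 4-fold or more and 1 was lower. Without the nasal tissue lists and the olfactory receptor genes, 2382 genes were higher and 382 lower. That omission covers listed genes only, so it does not give the number of higher genes that come from nasal tissue. In sorted bulk RNA, fewer cells of a type and less RNA per cell cannot be told apart, and the part of these cell types in the results below was not tested.

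**Figure D2:**
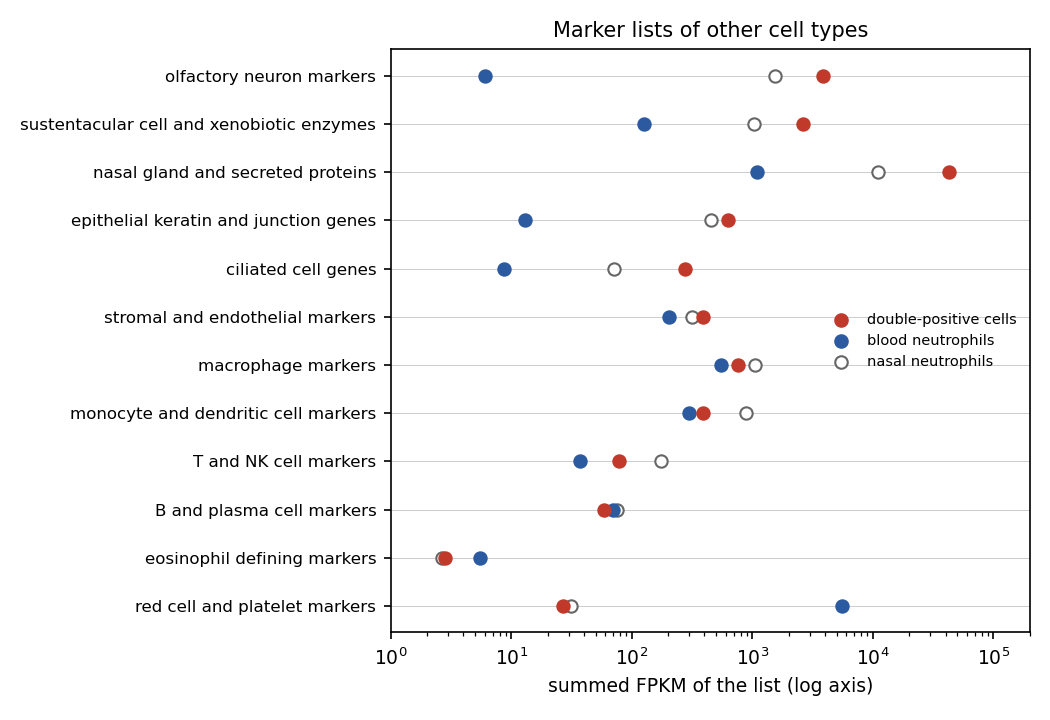
Summed FPKM of each marker list of other cell types (log axis) in DP, blood neutrophils and nasal neutrophils. Olfactory neuron, sustentacular and nasal gland lists were highest in DP, defining eosinophil genes stayed below 6 FPKM in every library, and red cell and platelet genes reached 5536 FPKM only in blood.

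Neutrophil genes were mostly lower in DP. Of 32 neutrophil markers, 17 were at least 4-fold lower in DP, 12 lay between and 3 were higher, S100a8 among these at 0 in blood, with a median log2 ratio of -2.35. Retnlg, a resistin-like secreted protein of myeloid cells, was at 142.9 FPKM in DP, while nasal neutrophils had 4692 and blood had 20894, 146-fold lower in DP. Mmp8, the neutrophil collagenase, was at 17.7, 507.6 and 1369 FPKM, 77.1-fold lower. Padi4, which citrullinates histones in extracellular trap formation, was at 4.53, 117.7 and 183.5 FPKM. For these 3 genes nasal neutrophils lay between the other libraries. Slpi, a leukocyte protease inhibitor, was 26.1-fold lower in DP (301.1 against 7863 FPKM). Csf3r, the G-CSF receptor that sustains neutrophils, differed less, at 581.4 FPKM in DP and 1180 in blood. Il1r2, the decoy receptor for interleukin-1, was higher in DP at 2740 FPKM, against 1996 in nasal neutrophils and 565.5 in blood.

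Granule genes were mostly lower where both libraries listed them above 0. Of 25 genes of secondary and tertiary granules, 11 were at least 4-fold lower and 1 higher, with a median of -1.50. Lcn2, the siderophore-binding lipocalin, was at 70.2 (DP), 3577 (nasal neutrophils) and 936.5 FPKM (blood). Camp, the cathelicidin precursor, was at 115.8, 1055 and 398.4, and Ngp, a neutrophil granule protein, at 266.5, 3993 and 561.6. Ltf, lactoferrin, ran against these with 185.8 FPKM in DP and 56.6 in blood, and was highest in nasal neutrophils at 1324. Of the 25, Cd63 was the gene at least 4-fold higher: it encodes the granule and lysosome membrane tetraspanin and was at 919.2 FPKM in DP and 141.3 in blood. Primary granule genes, which are normally transcribed in the marrow, were low in both libraries apart from Lyz2 (479.8 and 6120 FPKM) and Ctsc (87.0 and 28.1). Of 8 that passed the filter, 2 were higher and 1 lower; their median of 1.19 turned to -1.51 without the 3 genes listed at 0 in blood, Mpo, Elane and Ctsg.

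Genes of the S100 and stefin families were lower as well, among them the most abundant transcript of blood. S100a9, one chain of the alarmin calprotectin, was at 3233 FPKM in DP, 12277 in the nasal neutrophil library and 52238 in blood, 16.2-fold lower in DP. Its partner S100a8 was at 7656 FPKM in DP, reached 29818 in the nasal neutrophil library and had 0 in the blood table, one of 91 genes at 0 there that reached 10 FPKM in the other libraries. A value of 0 there can be a failed estimate, and no ratio is given for S100a8. Stfa2l1, a stefin that inhibits cysteine proteases, was at 51.3 FPKM in DP and 1242 in blood. Of 17 such genes, 10 were lower and 3 higher, S100a8 included, and the median was -3.45. The stefin genes lie in a cluster of close copies, so the split of reads among them is uncertain.

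Receptor genes differed in both directions. Cxcr2, the main receptor for neutrophil chemokines, was at 254.2 FPKM in DP, while nasal neutrophils had 350.0 and blood had 1444. Fpr1, the receptor for bacterial formyl peptides, was at 98.9 FPKM in DP, below the 985.8 of nasal neutrophils and the 717.4 of blood. Members of the adhesion and receptor lists that were higher included the following. Icam1, a ligand of leukocyte integrins, was at 108.6 (DP), 412.0 (nasal neutrophils) and 4.64 FPKM (blood), and the integrin chain Itgax at 55.4, 14.3 and 5.34. Ccrl2, an atypical receptor that binds chemerin, was at 1300 FPKM in DP and 4.70 in blood, and the fatty acid receptor Gpr84 at 212.7 and 2.91. Cxcr4, the receptor that retains neutrophils in marrow, was at 34.0 and 17.3 FPKM, a log2 ratio of 0.93, just under the median of all genes. Of 25 chemoattractant receptors, 5 were higher and 3 lower, with a median of 0.27 that became negative when ratios were centred or scaled to the upper quartile. Of 28 adhesion molecules, 3 were higher and 5 lower, with a median of -0.35. In both lists the share of higher genes lay under the 24.0% of all genes, and the share of lower genes above their 3.57%.

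Chemokine genes were mostly higher in DP. Of 29 that passed the filter, 17 were higher in DP by 4-fold or more and 1 was lower, with a median log2 ratio of 2.45. Of the 17, 7 were listed at 0 in blood. Ccl3, a CC chemokine that attracts monocytes and neutrophils, was at 2290 FPKM in DP, 4615 in the nasal neutrophil library and 1.89 in blood, 1210 times higher in DP than in blood. Cxcl2, a CXCR2 ligand, was at 2025, 12755 and 3.60 FPKM, 562 times higher. Ccl4, a CC chemokine close to Ccl3, was at 2308, 6729 and 8.36 FPKM, 276 times higher. All 3 were more abundant in nasal neutrophils than in DP. Cxcl3, another CXCR2 ligand, was at 38.4 FPKM in DP and 0.15 in blood, and Cxcl1 at 22.6 and listed at 0. Ccl6 was the member that was lower, at 266.2 FPKM in DP, while nasal neutrophils had 878.2 and blood had 6275.

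NF-kappaB targets and immediate early genes showed the same side. Of 29 NF-kappaB targets that passed the filter, 16 were higher and 0 lower, with a median of 2.22, and the median was 2.30 over members at 1 FPKM or more in blood. Tnfaip3, the ubiquitin-editing feedback inhibitor A20, was at 93.3 (DP), 632.8 (nasal neutrophils) and 2.32 FPKM (blood), 40.3 times higher in DP. Nfkbia, the inhibitor IkappaBalpha, was at 1085, 3929 and 109.9 FPKM. The anti-apoptotic Bcl2a1d was at 470.0, 578.5 and 15.3 FPKM, though it has close copies that share its reads. The copies Bcl2a1a and Bcl2a1b are also among the 16, so these 16 are not all separate signals. Among genes of the factor's own subunits, Relb was at 5.18 FPKM in DP and 5.14 in blood, and Rela at 24.4 and 24.6. Nfkb1 was at 14.4 and 11.1, Rel at 17.3 and 7.39, and Nfkb2 at 9.62 and 3.84, all under 4-fold. Nlrp3, the inflammasome sensor, was at 23.4 FPKM in DP, 378.4 in the nasal neutrophil library and 37.7 in blood.

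The promoters of 3 members of these lists that hold a match to the NF-kappaB consensus are shown. The consensus was read as GGG, any 2 bases, TT, any base and CC, searched on both strands. Among members with a match that passed the filter, these 3 had the highest log2 ratios of FPKM + 1 (8.78, 5.1 and 4.83). The others ranged from -0.66 for Nlrp3, through 1.12 for Rel and 3.29 for Nfkbia, to 4.56 for Cxcl1. The 3 promoters are RefSeq sequences on GRCm38.p6, the 250 bases before the annotated start, written 5′ to 3′ along the gene, with matches in capitals. Cxcl2 lies at chr5:90903649-90903898 on the plus strand, Cxcl3 at chr5:90785851-90786100 on the plus strand and Tnfaip3 at chr10:19015411-19015660 on the minus strand.
Cxcl2: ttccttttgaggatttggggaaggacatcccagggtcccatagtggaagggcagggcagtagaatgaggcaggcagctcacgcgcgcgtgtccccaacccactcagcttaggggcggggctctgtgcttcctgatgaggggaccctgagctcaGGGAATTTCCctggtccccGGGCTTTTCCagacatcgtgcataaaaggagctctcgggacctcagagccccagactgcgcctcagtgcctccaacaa
Cxcl3: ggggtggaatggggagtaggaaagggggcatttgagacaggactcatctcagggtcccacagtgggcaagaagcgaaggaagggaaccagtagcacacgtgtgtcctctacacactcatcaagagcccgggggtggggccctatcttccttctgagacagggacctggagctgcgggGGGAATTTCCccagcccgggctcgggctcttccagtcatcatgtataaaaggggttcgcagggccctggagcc
Tnfaip3: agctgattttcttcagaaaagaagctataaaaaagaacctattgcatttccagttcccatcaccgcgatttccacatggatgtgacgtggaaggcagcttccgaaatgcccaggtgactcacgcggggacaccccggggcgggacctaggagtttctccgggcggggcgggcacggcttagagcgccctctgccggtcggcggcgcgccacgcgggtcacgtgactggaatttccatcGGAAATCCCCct
In Cxcl2 the matches begin 97 and 78 bases before the start, in Cxcl3 the match begins 73 bases before it and in Tnfaip3, on the opposite strand, 12 bases before it, and the 10-letter match in Cxcl3 equals the first of the pair in Cxcl2. The motif was present in 9 of 25 NF-kappaB target genes with a promoter in the table (36.0%) and in 8 of 25 chemokine genes (32.0%), with the search run from 250 bases before to 50 after the start. Among all promoters of that length 4.79% of 32851 held it, or 5.48% of 27025 genes. It was present in 1 of 28 immediate early genes and in 2 of 33 complex I genes. Lists with other patterns held it too: 4 of 10 genes of MHC class II and antigen presentation, a list with 1 of 16 genes higher in DP, 6 of 28 cytokine genes and 5 of 25 survival and death regulators. Genes of the first list are known as targets of the factor, and a match of letters is a description and not a site of binding.

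Of 31 immediate early genes that passed the filter, 17 were higher and 0 lower, with a median of 2.25. Egr1 was at 385.4 FPKM in DP, while nasal neutrophils had 1198 and blood had 0.17, and its relative Egr2 at 180.8, 66.2 and 0.77, so Egr2 was highest in DP. Nr4a1, an orphan nuclear receptor, was at 968.6, 1138 and 12.4 FPKM, 78.0 times higher in DP than in blood. Dusp1, a MAP kinase phosphatase, was abundant in every library with 8873, 8628 and 1000 FPKM. Cebpb, a transcription factor of emergency granulopoiesis, was at 156.1 FPKM in DP and 2.71 in blood, and Bhlhe40 at 154.9 and 2.94. Cebpe, which drives secondary granule genes in the marrow, was at 39.1 (DP), 12.9 (nasal neutrophils) and 5.79 FPKM (blood).

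**Figure D3:**
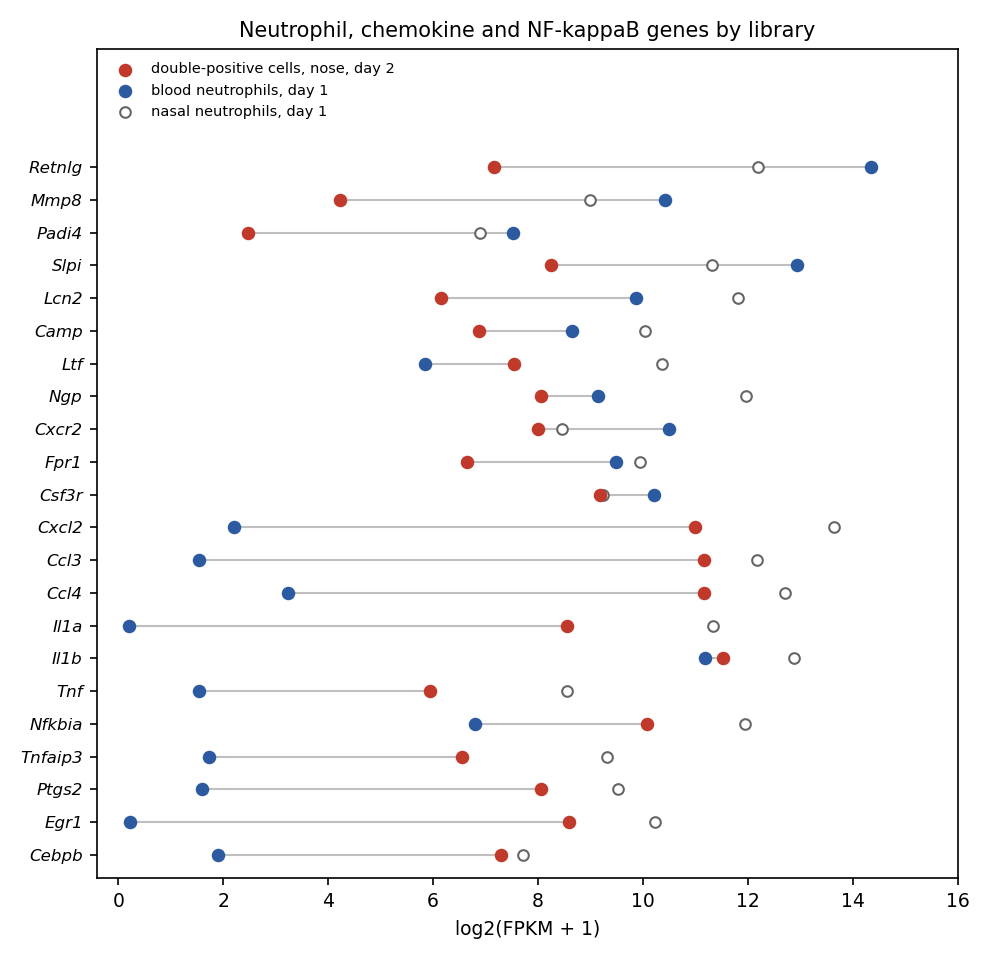
Level of neutrophil, chemokine and NF-kappaB genes as log2(FPKM + 1), with DP, blood neutrophils and nasal neutrophils as points and a line joining DP to blood. From Retnlg to Csf3r the blood point lies to the right except for Ltf, and from Cxcl2 to Cebpb the DP point lies to the right of blood.

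Cytokine genes went both ways. Of 26 that passed the filter, 7 were higher and 3 lower, with a median of 1.20. The share of higher genes was near the 24.0% of all genes, and the share of lower genes was above their 3.57%. The length-corrected median of the cytokine list was 0.92, under the 0.95 of all genes. Il1a was at 376.9 FPKM in DP, 2575 in the nasal neutrophil library and 0.15 in blood, whereas Il1b was already abundant in blood, with 2931 in DP, 7513 in the nasal neutrophil library and 2322 in blood. Tnf was at 60.3, 372.7 and 1.89 FPKM, and Csf1, the growth factor of macrophages, at 120.9, 271.6 and 11.8. Il33, an alarmin stored in epithelial nuclei, was at 50.3 FPKM in DP, 6.16 in the nasal neutrophil library and 0 in blood. The 3 lower genes were Tnfsf14 (9.30 in DP and 132.3 in blood), Il15 (10.8 and 83.0) and Il16 (32.8 and 149.4). Receptors for microbial products split as well, with 3 of 23 higher, a share under that of all genes, and 4 lower, a share above it. Cd14, the LPS co-receptor, was at 4118 FPKM in DP, while nasal neutrophils had 12196 and blood had 204.2. Clec4n, the fungal receptor dectin-2, was highest in DP at 1670 FPKM against 444.0 and 70.2, and Clec5a was at 533.8, 96.5 and 89.7. Tlr8 was lower in DP, at 1.14 FPKM against 23.3, as was the LPS receptor partner Ly96, at 14.9 against 84.4.

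Interferon-response genes leaned toward blood. Of 38 that passed the filter, 0 were at least 4-fold higher and 7 were lower, a share above the 3.57% of all genes. At 2-fold, 2 were higher and 17 lower, and to any extent 10 were higher and 28 lower. The median was -0.64, against 0.95 for all genes. Oasl1 was at 4.77 (DP), 119.0 (nasal neutrophils) and 60.7 FPKM (blood), and the antiviral enzyme Rsad2 at 8.89, 154.7 and 84.7. Ifitm1, a membrane protein that blocks viral entry, was at 1585, 1854 and 7837 FPKM. Isg15 was slightly higher in DP, with a log2 ratio of 0.27, which lies under the median of all genes.

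Genes of eicosanoid synthesis differed most at a terminal enzyme. Arachidonic acid is released by phospholipase A2 and oxidised by 5-lipoxygenase to leukotriene A4, from which leukotriene A4 hydrolase makes LTB4 and leukotriene C4 synthase makes the cysteinyl leukotriene LTC4. Of 23 genes that passed the filter, 10 were higher in DP by 4-fold or more and 0 lower, and the median was 1.38, or 0.19 over members at 1 FPKM or more in blood. Ltc4s was at 417.9 FPKM in DP, 4.61 in the nasal neutrophil library and 0.80 in blood, a log2 ratio of 7.86. Alox5, which encodes 5-lipoxygenase, was at 80.4, 78.9 and 198.5 FPKM, and its activating protein Alox5ap at 1015, 1495 and 3669. Lta4h, the LTB4 branch, was nearly level at 43.7, 36.3 and 38.1 FPKM, and Cyp4f18, which oxidises LTB4, was at 2406, 377.2 and 1094. Pla2g4a, the cytosolic phospholipase of the first step, was higher in DP, at 33.8 FPKM against 7.14 in blood. Downstream of LTC4, the peptidase gene Dpep2 was at 23.9 FPKM in DP and 1.94 in blood while Ggt1 was at 2.73 and 10.3, and the receptor gene Cysltr1 was at 22.9 FPKM in DP, while nasal neutrophils had 1.06 and blood had 0.67. Of the cyclooxygenases, Ptgs1 was highest in DP (77.5, 7.75 and 5.32 FPKM) and Ptgs2 in nasal neutrophils (263.7, 738.4 and 2.01).

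**Figure D4:**
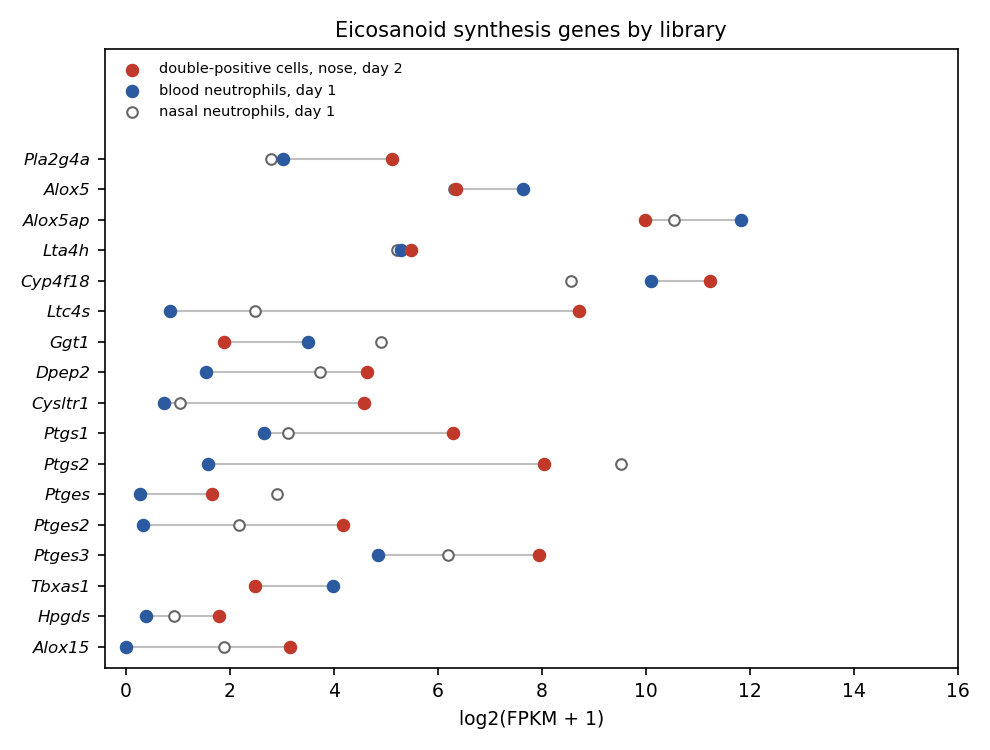
Level of eicosanoid synthesis genes as log2(FPKM + 1) in DP, blood neutrophils and nasal neutrophils, with a line joining DP to blood. The widest gaps toward DP are at Ltc4s and Ptgs2, and Alox5 and Alox5ap lie on the blood side.

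SiglecF-high neutrophils of mouse tumours have a published signature. Of its genes in the list used here, 25 passed the filter. Against blood, 14 of them were higher in DP, 1 was lower, and the median was 2.56. The list was not a mark of DP alone. Its summed level was largest for nasal neutrophils, at 12516 FPKM, while DP had 10937 and blood had 5695. Abundant genes weigh most in such a sum, and single members differed in direction between DP and nasal neutrophils. Siglec5 is on that list and belongs to the sort. Spp1, osteopontin, was at 196.7 (DP), 114.5 (nasal neutrophils) and 7.75 FPKM (blood). Ctsd, cathepsin D, was the lower member, at 212.3 FPKM in DP, 1219 in the nasal neutrophil library and 1155 in blood. Cd274, which encodes PD-L1, was highest in nasal neutrophils at 409.4 FPKM, with 20.5 in DP and 12.3 in blood. Among 44 lysosomal genes 8 were higher and 1 lower, with a median of 0.63 that became negative after centring or upper-quartile scaling. Both shares lay under those of all genes. Lamp1 was at 227.2 FPKM in DP and 19.9 in blood, and the protease gene Lgmn at 165.9 and 6.09. The cholesterol exporter gene Abcg1 was at 319.9 FPKM in DP, while nasal neutrophils had 55.9 and blood had 38.6.

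Complex I and mitochondrial ribosomal protein genes were mostly higher in DP. Neutrophils keep few mitochondria and make most of their ATP by glycolysis, while the respiratory chain needs both nuclear-encoded subunits and proteins made on mitochondrial ribosomes. Of 37 complex I genes, 18 were at least 4-fold higher and 0 lower, with a median of 1.95. Ndufa12 was at 583.2 (DP), 43.2 (nasal neutrophils) and 14.9 FPKM (blood), and Ndufc1 at 564.7, 31.6 and 28.6. Complexes II and III had 6 of 14 higher (median 1.49), complex IV 2 of 12 (1.45) and ATP synthase 4 of 16 (1.03), each with 0 lower. The share in complex IV lay below the 24.0% of all genes, and the ATP synthase median was close to the 0.95 of all genes. Cycs, cytochrome c, was at 152.7 FPKM in DP and 9.09 in blood, but Atp5l was level at 736.3 and 731.7. Of 76 mitochondrial ribosomal protein genes, 45 were higher and 0 lower, with a median of 2.17. Mrpl52 was at 679.0 FPKM in DP, 60.0 in the nasal neutrophil library and 9.82 in blood, whereas Mrpl33 was at 546.0 in DP and 1131 in blood. The 79 cytosolic ribosomal protein genes differed less, with 7 higher and 0 lower and a median of 0.64 that became negative after centring or upper-quartile scaling. Many of these transcripts are short. Ratios corrected for transcript length gave medians of 1.62 for complex I, 1.26 for complexes II and III and for complex IV, 2.15 for mitochondrial and 0.30 for cytosolic ribosomal proteins. ATP synthase came to 0.72, under the median of all genes.

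Glycolysis genes were mixed in sign but leaned toward blood beside all genes. Of 20, 0 were at least 4-fold higher and 4 lower, and 5 were at least 2-fold higher and 6 lower. Their median was -0.39, against 0.95 for all genes. Hk3, the hexokinase of myeloid cells, was at 6.79 FPKM in DP, while nasal neutrophils had 61.9 and blood had 65.3. Slc16a3, the lactate exporter MCT4, was at 18.2, 515.4 and 157.3 FPKM. Pgam1, a phosphoglycerate mutase, was at 266.4 FPKM in DP and 92.0 in blood. In the citric acid cycle 5 of 19 genes were higher and 0 lower, with a median of 1.41. The share of higher genes was near the 24.0% of all genes, and the length-corrected median was 1.19. Mdh1, malate dehydrogenase, was at 132.6 FPKM in DP and 10.6 in blood.

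Many genes of redox and stress responses were also higher. Of 20 antioxidant genes, 12 were higher and 1 lower, with a median of 2.21. To any extent 14 were higher and 6 lower. Prdx1, a peroxiredoxin, was at 246.7 (DP), 196.0 (nasal neutrophils) and 10.8 FPKM (blood), and Nqo1, a quinone reductase, at 86.1, 41.8 and 4.41. Txn1, thioredoxin, was the gene at least 4-fold lower, with 120.4 FPKM in DP and 636.0 in blood. The abundant Prdx5 (1210 and 1955 FPKM) and Gpx1 (817.2 and 1845) were lower in DP by less than 4-fold. The antioxidant list summed to 3908 FPKM in DP and 5518 in blood. Of 23 genes of the unfolded protein response, 10 were higher and 0 lower, with a median of 1.76. Ppp1r15a, which restores translation after stress, was at 1096, 763.5 and 7.28 FPKM, and the chaperone partner Sdf2l1 at 32.7, 19.3 and 0.21. Ddit3, the stress factor CHOP, was at 75.01 FPKM in DP and 148.8 in blood.

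Among survival and death regulators, 8 of 27 were higher and 2 lower, and the median of 0.28 became negative after centring or upper-quartile scaling. The share of higher genes was not far above the 24.0% of all genes. The 8 include the close copies Bcl2a1a, Bcl2a1b and Bcl2a1d, which share reads and are not separate signals. Bcl2l1, which encodes the anti-apoptotic Bcl-xL, was at 212.2 FPKM in DP, 212.3 in the nasal neutrophil library and 16.2 in blood. The pro-apoptotic Bax was higher too, at 213.8, 77.8 and 16.3 FPKM. Mcl1, on which neutrophils depend, was nearly level at 149.5, 157.7 and 126.2.

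**Figure D5:**
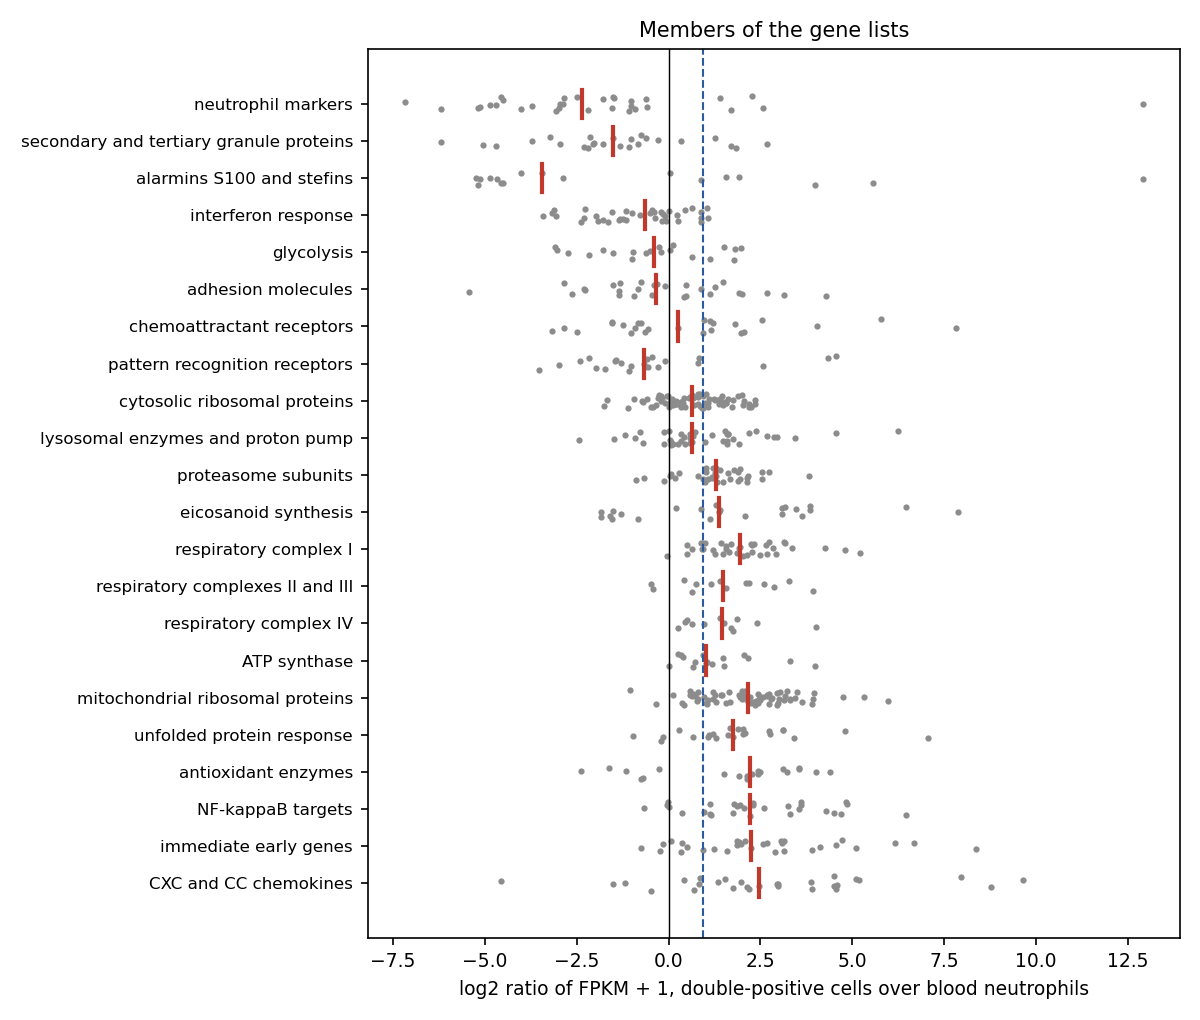
Log2 ratio of FPKM + 1, DP over blood, for each member of the gene lists that passed the filter (points), with list medians as red bars and the median of all genes, 0.95, as a dashed line. The neutrophil, secondary and tertiary granule, and S100 lists have negative medians, and the lists of immediate early genes, chemokines and NF-kappaB targets have medians above 2.

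Growth factors were mostly low. Of 48 neurotrophic and growth factor genes, 17 passed the filter and 8 of these were higher, with 0 lower and a median of 1.89. Gdnf, a neurotrophic factor, was listed at 0 in DP and in blood. Mdk, midkine, was at 14.9 FPKM in DP, while nasal neutrophils had 2.30 and blood had 0.14, and Hbegf, an EGF receptor ligand, at 14.01, 9.23 and 0.063. Thbs1, thrombospondin, was far higher in nasal neutrophils (409.7 FPKM) than in DP (13.5) or blood (0.61). Hgf, hepatocyte growth factor, was level between DP and blood at 5.76 and 5.57 FPKM.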

How the data were processed

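RNA of sorted cells was made into libraries with a low-input kit, per the labels' protocols. The authors deposited 1 value per gene and library, read here as FPKM, since the submitters' processing notes list Cufflinks 2.1.1 beside Bowtie2 2.1.0, TopHat2 2.0.8 and the build mm9, and the column headers give sample codes without a unit. Tool settings: not given in the sources used here. Values under 1e-06 were set to 0. The log2 ratio of FPKM + 1 (pseudocount 1) was taken without rescaling, which understates the ratio of low genes, and folds are given only where both libraries reach 1 FPKM. Depth was read from the steps between low values of genes over 1500 nt long, with a tolerance of 6%, and is approximate: 1 FPKM is about 55 fragments per kb in DP and 54 in blood.

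Members and the 55 gene lists were chosen with earlier results of these data known. The text names sort genes, and genes among the 15 most abundant of a library, among the 15 highest or lowest ratios when the mean reached 5 FPKM, among 4 members of a list with the largest ratio or 4 with the highest level, or among the 10 most abundant of those listed at 0 in DP or blood. Alox5, Bax, Bcl2l1, Camp, Cd274, Clec5a, Csf1, Csf3r, Ctsg, Cxcl1, Cxcl3, Cxcr4, Ddit3, Dpep2, Ear6, Epx, Gdnf, Ggt1, Hgf, Il15, Il16, Il1r2, Isg15, Lta4h, Ltf, Ly96, Lyz1, Marco, Mcl1, Nfkb1, Nfkb2, Ngp, Nlrp3, Pgam1, Pla2g4a, Prg2, Ptgs1, Rel, Rela, Relb, Spp1, Stfa2l1, Thbs1, Tnf, Tnfsf14, Vsig4 and the remaining genes of the eicosanoid plot were chosen after their values were seen. Steps were tested on simulated data. Alternatives were other pseudocounts, filters, scalings, thresholds, a length correction over 20 bins and the omission of genes at 0, nasal tissue genes or short RNA genes. Transcript lengths came from GENCODE M21 (GRCm38) and served as lengths only. Python 3.11.15, pandas 2.3.3, numpy 2.4.6 and matplotlib 3.10.9 were used.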

Additional observations from a re-analysis of the deposited data

How the results depend on the processing

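No paired analysis was possible because each group holds 1 library, and no replicate could be left out. Genes at least 4-fold higher in DP numbered 941 at a pseudocount of 5, 1630 at a mean of 5 FPKM or more, 1116 after median centring, 1594 after upper-quartile scaling, and 1007 when the blood value had to reach 1 FPKM, a restriction chosen after seeing the data, against 2577. They numbered 3847 at a pseudocount of 0.1 and 3209 with sums scaled to 1000000. Genes at least 4-fold lower numbered 971 after centring and 788 after upper-quartile scaling, against 383. At 2-fold the counts were 5214 and 1017, and at 8-fold 1055 and 156. The median log2 ratio of 0.95 was 0.16 without the filter, 0.0 after centring and 0.29 after upper-quartile scaling. Of 236 named genes past 4-fold, 202 were still past it after centring, 208 after upper-quartile scaling and 209 at a pseudocount of 5. The sign of the median changed after centring in 10 of 52 lists, and after upper-quartile scaling in 8, of which those described are named with their medians. At about 54 fragments per FPKM and kb, 1 fragment per kb was 0.0184 FPKM in blood. Values near that level rest on few fragments, and levels at 0 can be failed estimates.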

Other observations

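Immune receptor genes differed in both directions between DP and blood neutrophils. Of 25 Fc and complement receptor genes, 5 lay 4-fold or more above blood in DP and 5 below, with a median log2 ratio of -0.37. The share above lay under the 24.0% of all genes, and the share below exceeded their 3.57%. Treml4, a TREM family receptor, was at 181.9 (DP), 103.1 (nasal neutrophils) and 18.1 FPKM (blood), while the adaptor gene Tyrobp was at 2279, 2224 and 10144. Fcer1g, the shared Fc receptor gamma chain, was level at 4408 FPKM in DP and 4344 in blood. Havcr2, which encodes TIM-3, was at 37.0 FPKM in DP, 17.0 in the nasal neutrophil library and 0.63 in blood, and the ectonucleotidase gene Nt5e (CD73) at 23.8, 20.1 and 1.47. Arg2, mitochondrial arginase, was lower, at 92.6 FPKM in DP, while nasal neutrophils had 431.1 and blood had 507.7.

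Genes of the splicing core were also higher. Of 21 Sm and Lsm protein genes, 12 were higher by 4-fold or more and 0 lower, with a median of 2.47. Lsm7 was at 326.2 (DP), 10.7 (nasal neutrophils) and 3.22 FPKM (blood). Actin and motility genes leaned toward blood as a list. Of 35, 2 were higher and 3 lower by 4-fold or more. To any extent 11 were higher and 24 lower, and the median of -0.30 lay under the 0.95 of all genes. Coro1a, an actin-binding coronin, was at 296.7 FPKM in DP and 1456 in blood, and Gsn, gelsolin, was at 852.8 in DP and 167.4 in nasal neutrophils but was listed at 0 in blood. Short RNA genes, whose short models make their FPKM unreliable, split evenly, with 56 of 170 higher and 57 lower.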
